A study of Homo sapiens with 6 samples.

Results

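The genes described here are 45 genes that act in G2 and mitosis. They were taken by name: a row of the deposited FPKM table belongs to the set when its gene symbol is exactly one of 45 listed symbols, and all 45 were found among the 31628 genes of the table. The rule uses no measured value. FPKM is a read count scaled to the length of the gene and the depth of the library. RNA of HCT116, a line from a human colon cancer, was measured in 6 poly(A)-selected libraries that form 3 groups of 2. The washout cells had 500 um IAA for 3 h, a PBS wash and then 48 h in normal medium. The IAA cells were harvested after 3 h of 500 um IAA, and the control cells had no IAA. IAA is the auxin indole-3-acetic acid. All 3 groups carry the same engineering: ENL, the acetylated histone reader encoded by MLLT1, is tagged with an auxin-inducible degron (AID), and the cells stably express AtAFB2, a plant F-box protein that hands auxin-bound degrons to a ubiquitin ligase. Cells had been selected as clones in puromycin and blasticidin, and the labels do not say how many clones were used. They also do not say whether the 2 libraries of a group came from separate cultures, so the p-values measure only the spread between these libraries. No group had IAA without the degron, so effects of IAA itself and of the loss of ENL cannot be told apart. The labels describe no control that was washed or kept for the added 48 h. Recovery after washout, the wash and time in culture therefore cannot be told apart.

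Cells entering mitosis switch on a shared set of genes. CDK1 bound to cyclin A or cyclin B drives entry, and CDC25 phosphatases remove the phosphates that hold CDK1 inactive. Polo and Aurora kinases, mitotic kinesins and spindle proteins then build the spindle, kinetochores tie chromosomes to it, and the anaphase promoting complex ends mitosis by marking cyclin B and securin for destruction. Transcription of the set is held down early in the cycle by the DREAM complex and raised late by B-MYB with MuvB and by FOXM1. Many of its promoters hold a cell cycle homology region, which MuvB recognises, and CCAAT boxes, which NF-Y binds.

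Promoters are shown for 4 members because they span what the transcript data showed. HMMR and KIF20A had the largest log2 changes with IAA among the 38 members that passed the filter of the main test described below. That ranking depends on the scale and the filter. On recovered reads CDC25C, below the filter, changed more than KIF20A (voom log2 change 0.50 against 0.31), and NDC80 had a larger ratio of mean FPKM than KIF20A. CDK1 is the kinase the program serves, and PLK1 is a classic member whose level with IAA was close to control. Each runs from 250 bases before to 50 after the gene start in RefSeq (GRCh38.p14), 5′ to 3′ on the gene's own strand, which is the plus strand for all 4. HMMR lies at chr5:163460382-163460681, KIF20A at chr5:138178862-138179161, CDK1 at chr10:60778081-60778380 and PLK1 at chr16:23678639-23678938. Capitals mark the letters TTTGAA or TTCGAA (core of the cell cycle homology region) and CCAAT, read on either strand, so that TTCAAA and ATTGG are capitalised too.
HMMR: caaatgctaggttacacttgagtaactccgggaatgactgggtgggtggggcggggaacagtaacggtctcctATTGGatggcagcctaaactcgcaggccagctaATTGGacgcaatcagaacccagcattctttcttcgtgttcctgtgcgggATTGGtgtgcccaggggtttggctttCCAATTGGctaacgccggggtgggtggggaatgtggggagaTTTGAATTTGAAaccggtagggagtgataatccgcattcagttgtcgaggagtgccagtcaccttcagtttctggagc
KIF20A: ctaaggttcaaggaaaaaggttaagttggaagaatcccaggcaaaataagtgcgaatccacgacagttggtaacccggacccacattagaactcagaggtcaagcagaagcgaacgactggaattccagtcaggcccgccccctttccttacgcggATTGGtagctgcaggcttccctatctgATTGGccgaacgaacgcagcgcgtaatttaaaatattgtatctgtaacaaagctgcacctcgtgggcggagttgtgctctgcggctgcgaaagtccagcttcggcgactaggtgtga
CDK1: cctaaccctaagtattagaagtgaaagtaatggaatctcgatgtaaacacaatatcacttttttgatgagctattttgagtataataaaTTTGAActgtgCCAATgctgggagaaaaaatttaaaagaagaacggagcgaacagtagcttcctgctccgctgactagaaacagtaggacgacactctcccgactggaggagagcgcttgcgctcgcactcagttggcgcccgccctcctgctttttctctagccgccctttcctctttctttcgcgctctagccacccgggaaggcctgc
PLK1: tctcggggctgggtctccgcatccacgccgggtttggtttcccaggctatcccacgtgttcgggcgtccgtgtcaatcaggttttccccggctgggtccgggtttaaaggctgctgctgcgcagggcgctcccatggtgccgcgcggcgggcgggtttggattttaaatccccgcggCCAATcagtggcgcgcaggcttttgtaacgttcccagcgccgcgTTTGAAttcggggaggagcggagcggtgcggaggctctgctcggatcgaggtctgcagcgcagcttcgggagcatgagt
HMMR held 2 adjoining TTTGAA copies, the first starting at -28, and 5 CCAAT matches, of which those at -69 and -66 share letters. In PLK1 the TTTGAA match started at -29 and the CCAAT match at -73. CDK1 held its TTTGAA match farther out, at -161, with CCAAT at -150, and KIF20A held 2 CCAAT matches and no TTTGAA or TTCGAA in this window.

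RefSeq promoters were matched by symbol for 39 of the 45 members, and AURKA, TTK, BIRC5, TPX2, UBE2C and FOXM1 had no entry. Where a member had several promoter entries only the first was used, whereas every entry of the other genes was counted. Other starts of a member may hold other letters. TTTGAA or TTCGAA stood in 28 of 39 member promoters (71.8%), against 16.3% of 35067 promoters of other genes of the same length. CCAAT stood in 29 of 39 (74.4%), against 34.6%, and both kinds of letters in 23 (59.0%), against 6.31%. In the shorter window of 150 bases before to 50 after the start, the share of member promoters with TTTGAA or TTCGAA was 66.7%, against 10.1%. CACGTG, the E-box that MYC binds, stood in 5 member promoters (12.8%), against 7.25% of the others. TTCGAA and CACGTG read the same on both strands, and no motif contains another. Of members with TTTGAA or TTCGAA, 23 were tested in the RNA data and 5 were higher with IAA, with a median log2 change of 0.11. Of those without these letters 9 were tested and 2 were higher, with a median of 0.18. Over all genes of the main test 6.64% were higher, with a median of 0.014. A match is a description of the letters and not a mapped binding site.

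**Figure D1:**
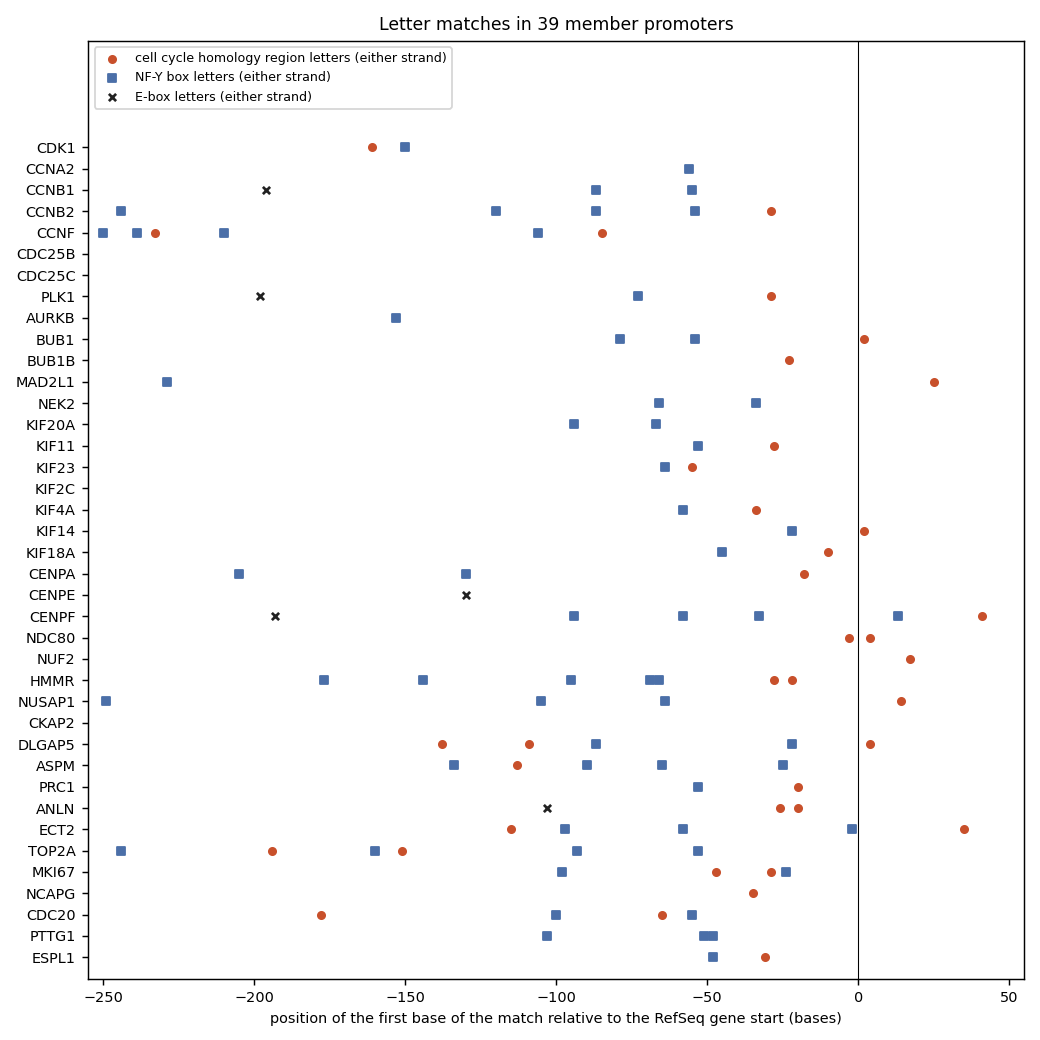
Positions of letter matches in the promoters of 39 G2 and mitosis genes. The x axis is the distance in bases of the first base of a match from the RefSeq gene start, and each row is a gene; circles are TTTGAA or TTCGAA (cell cycle homology region), squares CCAAT (NF-Y box) and crosses CACGTG (E-box), each on either strand. The 28 promoters with a circle mostly hold it close to the start (starting no more than 60 bases before or 50 after it in 23), and 29 promoters hold a square.

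Library totals implied by the FPKM values were 16442840 to 16770850 reads, and 8220 to 8406 genes reached an FPKM of 1 in a library. Of 9 markers of colon epithelium 8 had a mean FPKM of at least 1, with LGALS4 as the exception, whereas 0 of 6 fibroblast, 0 of 3 matched endothelial and 0 of 5 blood markers did. The summed FPKM of the epithelial markers was 363 and 379 after washout, 313 and 307 with IAA, and 375 and 388 in control, and the part of this in the results below was not tested. Most of that sum came from KRT18 and KRT19, with a mean FPKM of 156 and 121. MLLT1 mRNA stood at 0.413 and 0.384 FPKM after washout, 0.404 and 0.358 with IAA and 0.412 and 0.427 in control. The degron removes the protein, so these values do not check the degradation. The FPKM of this table were divided by the whole gene span with introns, which gives long genes low values. Changes are therefore compared within a gene. Levels of different genes are compared only as reads recovered from the FPKM steps scaled to exon length and library depth (reads per 1000 exon bases and per 1000000 library reads), called exon level here.

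In control cells CCNB1, cyclin B, had the highest exon level of the set, 116 ± 1.07 (SD, n = 2 as for all values with ± here). TPX2, the spindle assembly factor that activates Aurora A, followed at 87.3 ± 0.847, then MKI67, the Ki-67 protein that coats mitotic chromosomes, at 75.9 ± 2.88. CDK1 (61.4 ± 0.228) and TOP2A (60.2 ± 0.330), the topoisomerase that untangles sister chromatids, came next. At the low end stood ESPL1, separase, at 5.49 ± 0.0831, the chromokinesin KIF4A at 4.28 ± 0.187 and the phosphatase CDC25C at 2.16 ± 0.395. Of 44 neighbouring pairs in this order, 23 overlapped in their control libraries, so the middle of the order is not resolved by 2 libraries. Each of CCNB1, TPX2, MKI67, CDK1 and TOP2A stood apart from the gene next below it in the control libraries. That separation covers only the spread between libraries. The order of genes also depends on the exon lengths used for scaling, and the annotation behind the deposited values is not known. Error from these lengths was not tested, so the order of genes with close levels, such as CDK1 and TOP2A, may not be resolved. The number of recovered reads behind a member ran from 105 to 17404 in a library. Together the 45 genes took 0.631% and 0.641% of the library total after washout, 0.694% and 0.692% with IAA, and 0.651% and 0.636% in control. The IAA libraries were the highest on this summed share.

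The comparison of IAA with control asked what 3 h of IAA did to these transcripts. HMMR, a spindle protein, NDC80, a kinetochore subunit, KIF20A, a kinesin of the central spindle, NUSAP1, which bundles microtubules, CCNF, cyclin F, CDC25B, an activator of CDK1, and CDK1 itself were higher with IAA, by 1.15-fold to 1.33-fold. No member was lower by the same test, limma on log2(FPKM + 1) with an adjusted p under 0.05 over the 8317 genes whose FPKM averaged 1 or more, by which 6.49% of all tested genes were lower. Of the 45 members 38 passed that filter, and 7 of the 38 (18.4%) were called higher, against 6.64% of all tested genes. Their median log2 change was 0.10, against 0.014 for all tested genes, and 30 of 38 lay above 0. At an unadjusted p under 0.05 there were 17 of 38, against 31.6% of all tested genes. Both IAA libraries lay above both control libraries in 31 of 45 members (68.9%), against 35% of 14763 genes, and below both in 3 (6.67%, against 24.6%), KIF18A, TPX2 and ECT2. In bulk RNA, more cells in G2 or mitosis and more of these RNAs per cell cannot be told apart.

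Fitted on recovered reads with voom, which weights each value by its read number, all 45 members could be tested. There 19 were called higher (42.2%), against 13.9% of all genes, and 2 were called lower, KIF18A and ECT2, against 10.2% called lower over all genes (24.1% in either direction). At an unadjusted p under 0.05 voom gave 27 of 45, against 34.4% of all genes. All 7 genes above were among the 19. The limma calls rest on few libraries. The 1092 genes called overall were 70 and 57 without control replicates 1 and 2, 50 and 69 without IAA replicates 1 and 2, and 532 and 534 without washout replicates 1 and 2. Leaving out any single control or IAA library ended all 7 limma calls of members, and leaving out either washout library ended all but that of KIF20A. The lowest and highest adjusted p of the 7 over these 6 refits were 0.0434 and 0.168. Over the same refits the limma log2 changes of the 7 ran from a lowest of 0.17 (CDC25B) to a highest of 0.34 (HMMR). The voom log2 change of KIF18A ran from -0.31 to -0.25. The voom refits without single libraries were a check chosen after the data were seen. With FPKM rescaled to TPM, 4 members remained called higher (HMMR, KIF20A, NUSAP1 and CCNF), and the share of higher among all called genes was 38.0% in place of 50.5%.

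**Figure D2:**
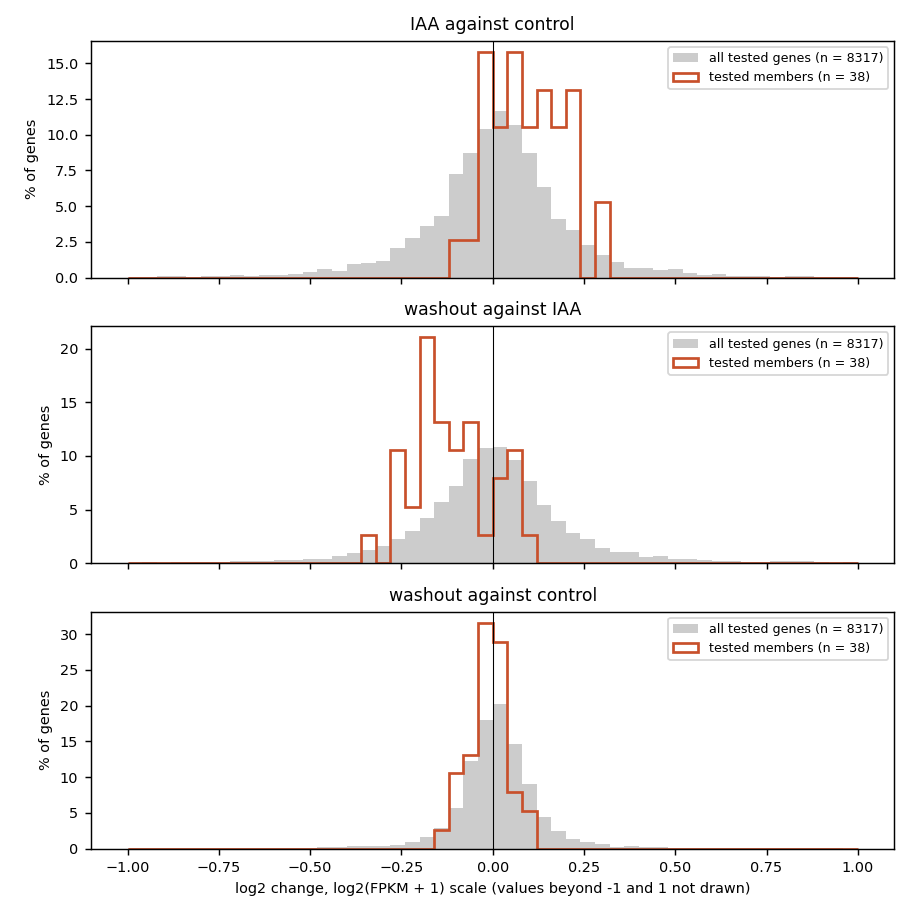
Distribution of log2 changes on the log2(FPKM + 1) scale for all 8317 tested genes (grey) and the 38 tested G2 and mitosis genes (outline), in 3 panels for IAA against control, washout against IAA and washout against control. The y axis is the percent of genes in each bin, and the members' medians are 0.10, -0.12 and -0.0090 from top to bottom.

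Among CDK1, its cyclins and their phosphatases, 3 of 6 tested members were higher with IAA and 0 lower by limma, and by voom 5 of 7 were higher and 0 lower. Over all genes 6.64% were higher by limma and 13.9% by voom, and the groups of like function hold too few genes for their shares to be set firmly against these. CDK1 had 14.7 and 14.6 FPKM after washout, 16.9 and 16.7 with IAA and 14.6 and 14.7 in control. The 4 washout and control libraries were nearly level, and both IAA libraries stood above them (1.15-fold over control, limma log2 change 0.19, SE 0.0348, adjusted p = 0.0348). CDC25B had 8.48 and 8.27 FPKM after washout, 9.86 and 9.60 with IAA and 8.11 and 8.51 in control, with the IAA libraries again highest and apart from both other groups (1.17-fold, limma log2 change 0.21, SE 0.0414, adjusted p = 0.0420). CCNF, the F-box cyclin that targets proteins for destruction in G2, had 3.15 and 3.24 FPKM in the washout libraries, 3.72 and 3.61 in the IAA libraries and 3.13 and 2.99 in the control libraries (1.20-fold over control, limma log2 change 0.20, SE 0.0364, adjusted p = 0.0343). Here too the groups with and without IAA did not overlap. CCNF shares 527 and 219 exon bases with the opposite-strand genes AC106820.6 and AC106820.5, and their part was not tested. CCNA2, cyclin A, shares 254 exon bases with EXOSC9 on the opposite strand, which had 1990 reads per library on average and whose part was not tested. CCNA2 had 19.7 and 18.9 FPKM after washout, 22.1 and 24.0 with IAA and 19.5 and 19.9 in control. Its IAA libraries were the highest, yet they differed from each other by more than those of the other groups, and the change over control did not pass by limma (limma log2 change 0.21, SE 0.0543, adjusted p = 0.0697). It passed by voom (log2 change 0.22, SE 0.0516, adjusted p = 0.00137), a call lost at 0.0638 without IAA replicate 2. CCNB1 showed little separation, with 24.3 and 26.0 FPKM after washout, 27.7 and 26.8 with IAA and 26.3 and 26.7 in control. Its IAA libraries lay just above control, and the 95% interval of its limma log2 change, -0.0887 to 0.16, holds 0 (adjusted p = 0.642). CDC25C, below the FPKM filter, had 0.163 and 0.137 FPKM after washout, 0.175 and 0.206 with IAA and 0.153 and 0.118 in control, which stand for 105 to 183 reads. CDC25C shares 293 exon bases with FAM53C on the opposite strand, a gene with 2372 reads per library on average, against 140 for CDC25C, and its part in the CDC25C value was not tested. On recovered reads CDC25C was higher with IAA (voom log2 change 0.50, SE 0.183, adjusted p = 0.0441). That call was lost without 2 of the 6 libraries, control replicate 2 and IAA replicate 2, with adjusted p values of up to 0.387.

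**Figure D3:**
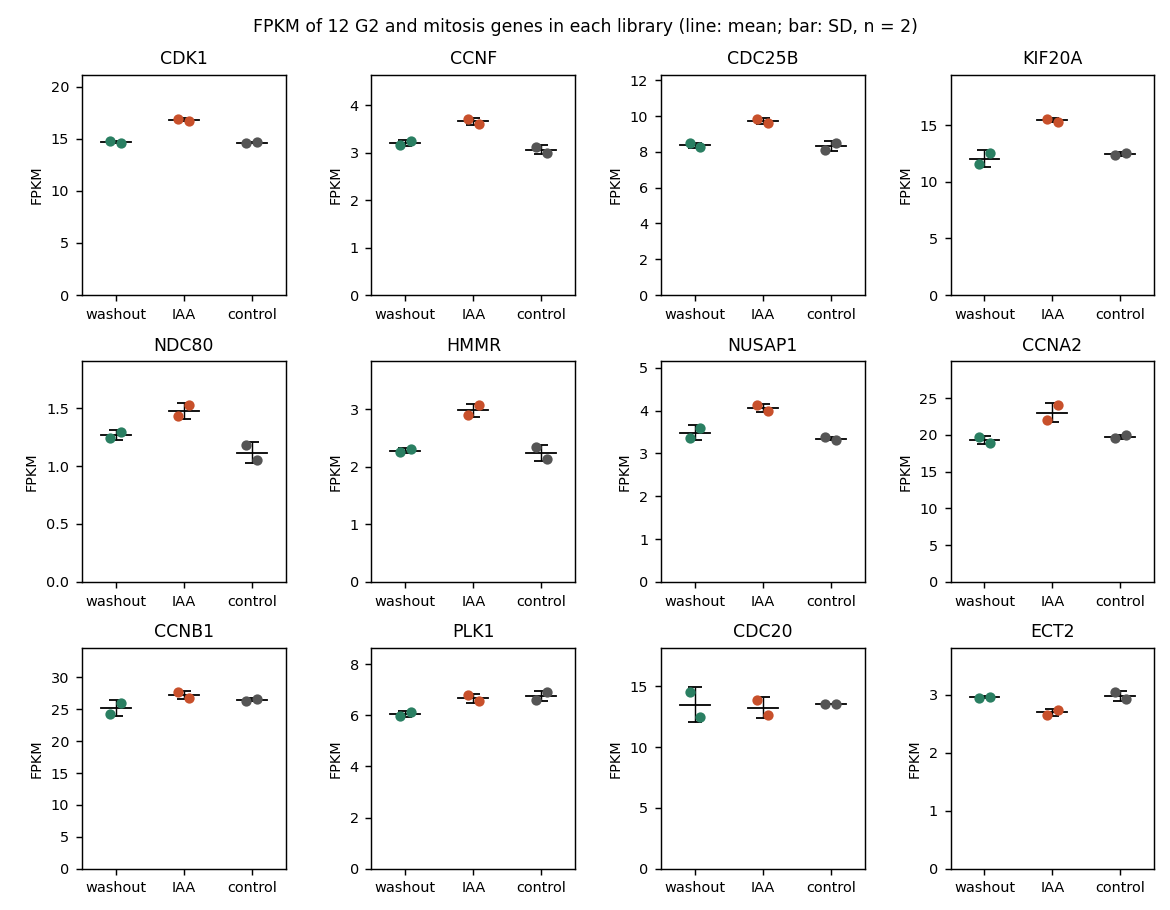
FPKM of 12 members in each library, with washout, IAA and control from left to right in every panel. Points are single libraries, horizontal lines group means and bars SD (n = 2), and each y axis starts at 0. The IAA points stand above the other groups in CDK1, CCNF, CDC25B, KIF20A, NDC80, HMMR, NUSAP1 and CCNA2, close to control in CCNB1, PLK1 and CDC20, and below both in ECT2.

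The 8 mitotic kinases and spindle checkpoint genes were all tested, and 0 passed limma in either direction with IAA, against 13.1% of all tested genes. At an unadjusted limma p under 0.05 there were 2, against 31.6%. By voom 1 was higher, the checkpoint kinase TTK, against 13.9% of all genes. Its call was lost without control replicate 2 or IAA replicate 1. PLK1, the polo kinase, had 5.95 and 6.11 FPKM after washout, 6.78 and 6.54 with IAA and 6.60 and 6.89 in control. The IAA and control libraries overlapped, with a 95% interval of the log2 change of -0.12 to 0.0896, and both washout libraries were below both. AURKA, the spindle pole kinase, had 2.88 and 2.91 FPKM after washout, 3.23 and 3.22 with IAA and 3.08 and 2.94 in control, higher in the IAA libraries without passing (limma log2 change 0.0742, SE 0.0343, adjusted p = 0.217). BUB1, a checkpoint kinase at kinetochores, had 2.77 and 2.87 FPKM in the washout libraries, 3.33 and 3.41 in the IAA libraries and 3.21 and 2.91 in the control libraries. In BUB1 the 3 groups stood in the order IAA, control, washout without overlap, and the limma adjusted p was 0.203 for IAA over control. NEK2, which separates the centrosomes, had 1.83 and 2.17 FPKM after washout, 2.65 and 2.61 with IAA and 2.26 and 2.14 in control, with the lowest value in a washout library (IAA over control limma log2 change 0.18, SE 0.0637, adjusted p = 0.136). AURKB, BUB1B and MAD2L1 overlapped between IAA and control.

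Of the 7 kinesins 1 of 4 tested was higher with IAA by limma and 0 lower, against 6.64% and 6.49% of all tested genes. By voom 3 of 7 were higher and 1 lower, against 13.9% and 10.2%. KIF20A had 11.5 and 12.6 FPKM after washout, 15.6 and 15.3 with IAA and 12.3 and 12.5 in control. Both IAA libraries stood well above all other libraries, 1.24-fold over control (limma log2 change 0.29, SE 0.0508, adjusted p = 0.0310) and the washout level was 0.780 of that with IAA (limma log2 change -0.33, SE 0.0508, adjusted p = 0.0237). Exons of KIF20A overlap those of CDC23 by 68 bases and of BRD8 by 132 bases on the opposite strand in GENCODE 29, and no source used here says which strand was counted. Without strand, reads from such overlaps cannot be told apart. In all, 19 of the 45 members share exon bases with another gene, and not all of these overlaps are named here. CDC23, a subunit of the anaphase promoting complex, had 2.20 and 1.85 FPKM after washout, 2.73 and 2.88 with IAA and 2.15 and 2.08 in control, so it was also highest with IAA, and its part in the KIF20A value was not tested. KIF18A, which limits the movements of chromosomes at the spindle middle, was the one that was lower. KIF18A had 0.815 and 0.899 FPKM after washout, 0.718 and 0.687 with IAA and 0.870 and 0.840 in control, with the IAA libraries lowest and no overlap with either other group. Its exons share 61 bases with METTL15 on the opposite strand, which had 1578 reads per library on average, against 1176 for KIF18A, and its part was not tested. The change passed on recovered reads (IAA over control, voom log2 change -0.28, SE 0.0693, adjusted p = 0.00233). With single libraries left out, its voom adjusted p stayed between 0.00130 and 0.0375. KIF23, the kinesin of the midzone, had 5.66 and 5.45 FPKM in the washout libraries, 5.84 and 6.16 in the IAA libraries and 5.79 and 5.97 in the control libraries, and IAA overlapped control. Of the others KIF11, which slides spindle poles apart, and KIF2C, which takes microtubules down, were called higher by voom and not by limma (limma adjusted p = 0.0667 and 0.0806), and KIF14 and KIF4A overlapped control. The voom call of KIF11 was lost without control replicate 2, and that of KIF2C without IAA replicate 1.

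At the centromere and kinetochore all 6 members had both IAA libraries above both control libraries, a separation that 35% of all genes show. By limma 1 of 3 tested was called and by voom 3 of 6, all higher, against 6.64% and 13.9% of all genes. NDC80, which grips microtubules, had 1.24 and 1.30 FPKM after washout, 1.43 and 1.52 with IAA and 1.18 and 1.05 in control. The IAA libraries were highest, 1.32-fold over control (limma log2 change 0.23, SE 0.0469, adjusted p = 0.0445), and both washout libraries lay between the other groups without overlap. CENPE, the kinesin-like motor of the kinetochore, had 0.792 and 0.842 FPKM after washout, 1.07 and 1.05 with IAA and 0.952 and 0.881 in control, with the washout libraries lowest. On recovered reads CENPE was higher with IAA than in control (voom log2 change 0.21, SE 0.0616, adjusted p = 0.0105, lost at up to 0.181 without control replicate 2 or IAA replicate 1). CENPA, the histone variant that marks centromeres, had 0.737 and 0.753 FPKM after washout, 1.06 and 0.853 with IAA and 0.818 and 0.813 in control. One IAA library was well above the other, and the change over control did not pass (voom adjusted p = 0.106). CENPF had 4.42 and 4.92 FPKM in the washout libraries, 5.52 and 5.51 in the IAA libraries and 5.08 and 5.03 in the control libraries, the IAA libraries being nearly equal and above all others (limma adjusted p = 0.234 against control, voom log2 change 0.13, SE 0.0435, adjusted p = 0.0302). Its voom call was lost when any single IAA or control library was left out, at up to 0.164. NUF2, the partner of NDC80, had 0.366 and 0.346 FPKM after washout, 0.443 and 0.394 with IAA and 0.382 and 0.330 in control and did not pass by voom (adjusted p = 0.0673), whereas BIRC5, survivin, had 19.2 and 18.8 FPKM after washout, 19.6 and 19.5 with IAA and 18.8 and 19.2 in control, a narrow range.

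Spindle and microtubule binding proteins had 2 of 6 members higher with IAA by limma and 5 by voom, with 0 lower, against 6.64% and 13.9% of all genes higher. HMMR, which organises spindle poles, had 2.25 and 2.31 FPKM after washout, 2.90 and 3.06 with IAA and 2.34 and 2.14 in control. The IAA libraries stood apart from 4 others that overlapped, at 1.33-fold over control (limma log2 change 0.30, SE 0.0461, adjusted p = 0.0242). HMMR shares 113 exon bases with the antisense gene HMMR-AS1, whose span covers 35.1% of the exon bases of HMMR and whose reads were not analysed here. NUSAP1 had 3.37 and 3.60 FPKM after washout, 4.12 and 3.99 with IAA and 3.38 and 3.31 in control, again highest with IAA (1.21-fold, limma log2 change 0.22, SE 0.0408, adjusted p = 0.0360). NUSAP1 shares 1787 exon bases on the same strand with AC087721.2, whose span covers 89.3% of its exon bases and whose reads were not analysed here, so reads of the 2 genes could not be told apart even with strand. TPX2 departed from these, with 5.04 and 4.89 FPKM after washout, 4.96 and 4.89 with IAA and 5.0 and 5.06 in control. Both IAA libraries lay below both control libraries, but by little (95% interval of the limma log2 change -0.11 to 0.0620). CKAP2, DLGAP5 and ASPM had limma log2 changes of 0.17, 0.11 and 0.13, were called by voom and were not called by limma. Each of these voom calls was lost without control replicate 2, and those of DLGAP5 and ASPM also without IAA replicate 2. That of DLGAP5 was lost without control replicate 1 as well.

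Of 3 cytokinesis genes 0 passed limma with IAA, against 13.1% of all tested genes, with 1 at an unadjusted p under 0.05, against 31.6%. By voom ECT2 alone was lower, against 10.2% of all genes. ECT2, which acts at the cleavage furrow, had 2.95 and 2.97 FPKM after washout, 2.66 and 2.74 with IAA and 3.04 and 2.92 in control. Its IAA libraries were lowest, apart from both other groups (limma adjusted p = 0.118, voom log2 change -0.14, SE 0.0462, adjusted p = 0.0208). The voom call was lost without control replicate 1 and without IAA replicate 1. ANLN, the scaffold of the contractile ring, had 4.91 and 4.83 FPKM after washout, 5.20 and 5.11 with IAA and 4.92 and 4.77 in control, and PRC1, which bundles the midzone, overlapped between IAA and control. PRC1 shares 3181 exon bases on the same strand with AC068831.7, whose reads were not analysed here.

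TOP2A, MKI67 and NCAPG, a condensin subunit, act on chromosome structure, and in each both IAA libraries lay above both control libraries, as in 35% of all genes. By limma 0 of 3 passed, against 13.1% of all tested genes, with 2 at an unadjusted p under 0.05, against 31.6%. By voom TOP2A and NCAPG were higher, against 13.9% of all genes. Both calls were lost without control replicate 2, and that of NCAPG also without IAA replicate 1. TOP2A had 12.8 and 13.8 FPKM after washout, 14.8 and 14.5 with IAA and 13.2 and 13.1 in control. MKI67 had 32.2 and 33.0 FPKM in the washout libraries, 34.0 and 34.9 in the IAA libraries and 33.6 and 31.8 in the control libraries, with the IAA libraries just above the others. NCAPG had 2.96 and 2.84 FPKM after washout, 3.28 and 3.12 with IAA and 2.78 and 2.74 in control, with control lowest and IAA highest. NCAPG shares 1631 exon bases (33.1% of its own) with LCORL on the opposite strand, which had 504 reads per library on average, and the part of LCORL was not tested.

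The 4 genes of anaphase promotion and sister separation gave 0 calls by either fit with IAA, against 13.1% of all genes by limma and 24.1% by voom. They also gave 0 at an unadjusted p under 0.05 by either, against 31.6% and 34.4%. UBE2C, the ubiquitin donor of the complex, had 15.1 and 14.4 FPKM after washout, 13.8 and 14.9 with IAA and 14.1 and 15.1 in control. All 3 groups of UBE2C overlapped (95% interval of the limma log2 change with IAA -0.17 to 0.13). CDC20, its activator, had 14.5 and 12.5 FPKM after washout, 13.9 and 12.6 with IAA and 13.6 and 13.5 in control, so that the control libraries fell inside the spread of both other groups. PTTG1, securin, had 2.83 and 2.87 FPKM in the washout libraries, 3.40 and 3.02 in the IAA libraries and 2.95 and 2.92 in the control libraries. Both IAA libraries of PTTG1 stood above all others, 1 of them by little. FOXM1, the transcription factor of the program, had 5.64 and 5.76 FPKM after washout, 5.79 and 5.73 with IAA and 5.71 and 5.56 in control. The 6 FOXM1 values were close together, and the 95% interval of its limma log2 change with IAA was -0.0622 to 0.12 (adjusted p = 0.643). FOXM1 shares 781 exon bases with ITFG2 on the opposite strand, which had 734.5 reads per library on average, and the part of ITFG2 was not tested.

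**Figure D4:**
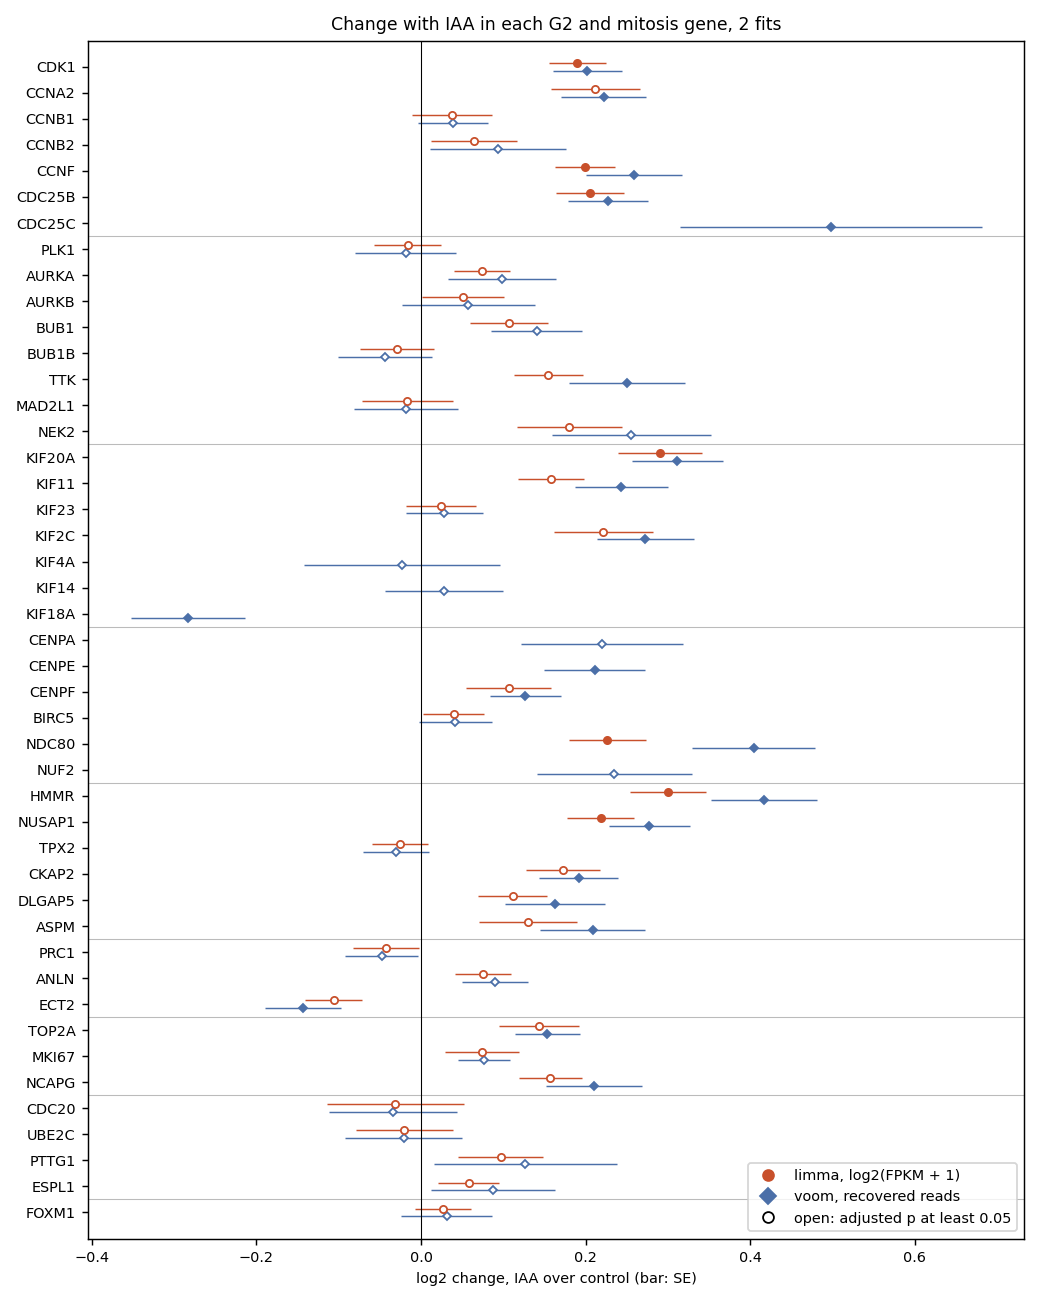
Log2 change of each of the 45 genes in IAA over control, by limma on log2(FPKM + 1) (circles, 38 genes above the filter) and by voom on recovered reads (diamonds, all 45), with SE bars. Filled symbols have an adjusted p under 0.05: 7 circles and 21 diamonds, of which KIF18A and ECT2 lie below 0. Grey lines separate groups of like function, from CDK1 and cyclins at the top to FOXM1 at the bottom.

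The comparison of washout with IAA asked where these levels stood 48 h after IAA was removed. It uses the same IAA libraries as the comparison above. By limma 4 of 38 members were lower after washout (10.5%), against 6.65% of all tested genes, and 0 were higher, against 7.73%. The 4 were KIF20A at 0.780 of the IAA level, HMMR at 0.765 (limma log2 change -0.28, SE 0.0461, adjusted p = 0.0270), CDC25B at 0.860 (limma log2 change -0.20, SE 0.0414, adjusted p = 0.0454) and CDK1 at 0.872 (limma log2 change -0.19, SE 0.0348, adjusted p = 0.0351). The median log2 change of the members was -0.12, against -0.00044 for all tested genes, and both washout libraries lay below both IAA libraries in 33 of 45 (73.3%), against 32.6% of 14763 genes. They lay above both in 5 (11.1%, against 27.5%), BUB1B, KIF18A, PRC1, ECT2 and ESPL1. By voom 21 members were lower (46.7%), against 13.6% of all genes, and 2 were higher (KIF18A and ECT2), against 11.6% (25.2% in either direction). ECT2 lost that call when any single IAA or washout library was left out. Below the filter, CENPE (voom log2 change -0.38, SE 0.0630, adjusted p = 1.95e-05) and CENPA (-0.35, SE 0.101, adjusted p = 0.00878) were lower after washout. KIF18A was higher (voom log2 change 0.29, SE 0.0693, adjusted p = 0.00201). Over the refits without 1 library the voom adjusted p reached 0.00134 for CENPE, 0.279 for CENPA, whose call was lost without IAA replicate 1 or washout replicate 1, and 0.0625 for KIF18A, whose call was lost without washout replicate 2.

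Leaving out any single library ended all 4 limma calls of washout against IAA, and 78 and 46 genes were called overall without IAA replicates 1 and 2, 69 and 97 without washout replicates 1 and 2, and 421 and 411 without control replicates 1 and 2. Over these refits the limma log2 change ran from -0.39 to -0.28 for KIF20A and from -0.31 to -0.25 for HMMR. It ran from -0.21 to -0.18 for CDC25B and from -0.19 to -0.18 for CDK1. With FPKM rescaled to TPM, HMMR and KIF20A remained called, and the share of higher among all called genes was 66.8% in place of 53.8%.

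**Figure D5:**
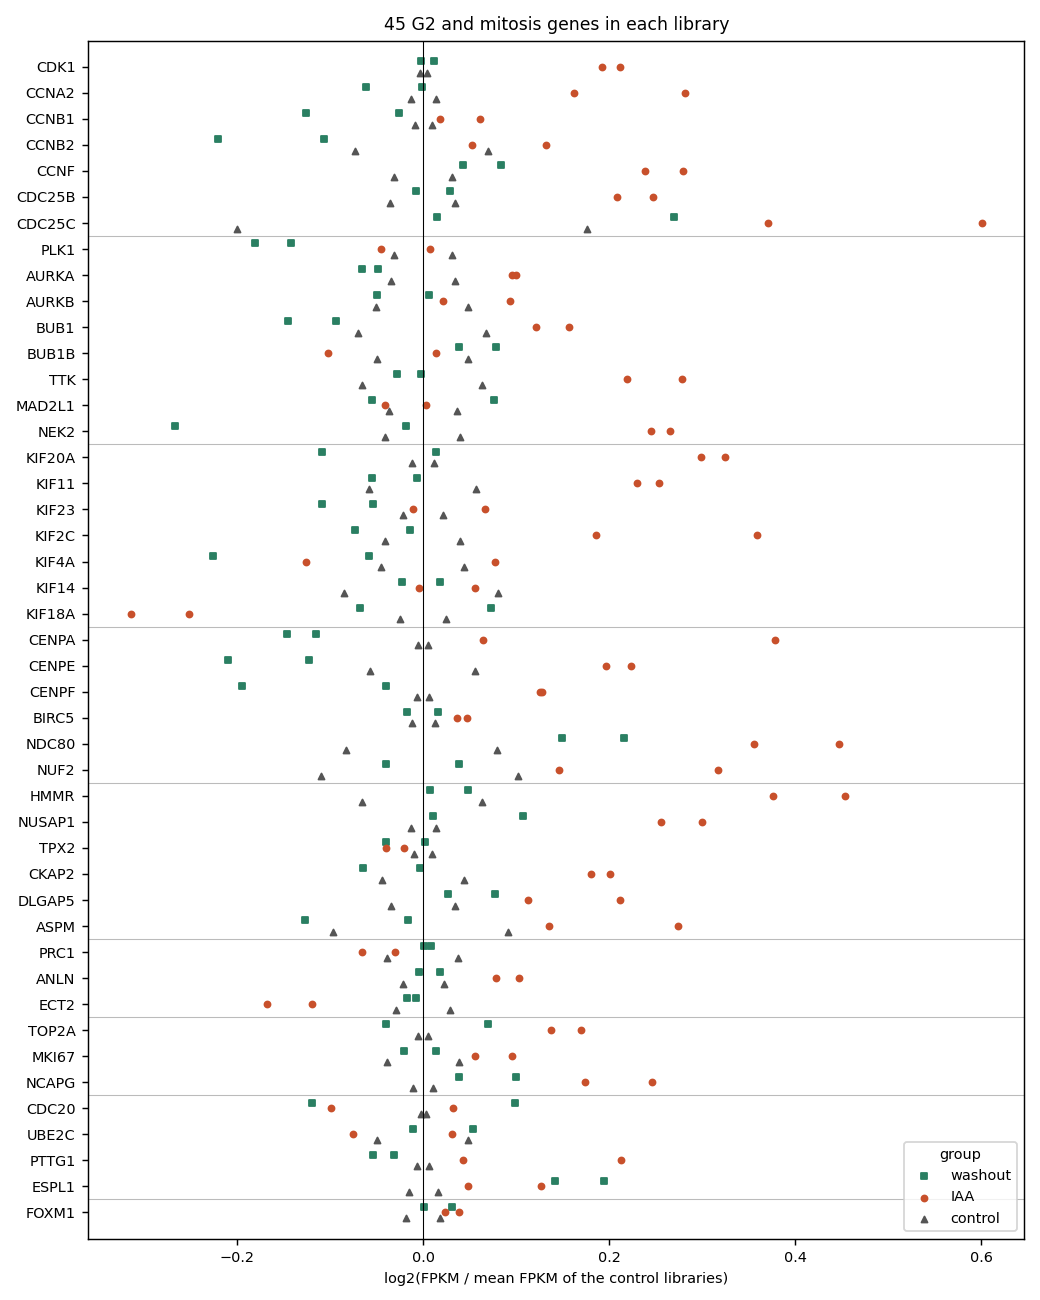
All 45 genes in each library as log2 of FPKM over the mean FPKM of the control libraries, one row per gene, in groups of like function separated by grey lines. Squares are washout, circles IAA and triangles control libraries (2 each). Circles lie to the right of both other groups in most rows, and to the left in KIF18A and ECT2.

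Set against control, 48 h after washout, 0 members passed in either direction by limma, where 0 of 8317 genes did, and 0 by voom, where 0.644% of genes did. At an unadjusted p under 0.05 there were 2 of 38 members by limma, against 9.02% of all tested genes, and 6 of 45 by voom, against 11.2%. The median log2 change was -0.0090. By direction, 0.312% of genes were higher and 0.332% lower by voom. Both washout libraries lay above both control libraries in 4 members (8.89%, against 23.7% of 14763 genes), CCNF, NDC80, NCAPG and ESPL1, and below both in 11 (24.4%, against 17.2%), among them CCNB1, CCNB2, PLK1, BUB1, CENPE and CENPF. In 30 members the groups overlapped. The 45 ratios of mean FPKM ran from 0.891 to 1.14. PLK1 had the largest limma log2 change of the set here, -0.14 (SE 0.0406, adjusted p = 0.524), and ESPL1 the largest above 0, 0.11 (SE 0.0369, adjusted p = 0.524).

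Other genes of the pathway were counted from 7 lists. Over all genes tested by limma 6.64% were higher and 6.49% lower with IAA, and 7.73% were higher and 6.65% lower after washout than with IAA. Counts such as 1 of 13 or 2 of 20 are near these shares. Among DREAM, MuvB, MYB and E2F regulators 1 of 9 tested was higher with IAA by limma and 0 lower, and 2 were higher after washout than with IAA. E2F7, a repressor, had 1.17 and 1.20 FPKM after washout, 1.36 and 1.51 with IAA and 1.06 and 1.13 in control (limma log2 change 0.22, SE 0.0458, adjusted p = 0.0474 for IAA over control). E2F2, an activator, had 2.22 and 2.13 FPKM after washout, 1.60 and 1.62 with IAA and 1.82 and 1.89 in control, lowest with IAA (limma log2 change 0.28, SE 0.0348, adjusted p = 0.0152 for washout over IAA), and E2F8, a repressor, was the other. On recovered reads voom called 4 of these 19 regulators higher with IAA, against 13.9% of all genes: MYBL1, LIN52, E2F7 and TFDP2. It called 1 lower, E2F4, against 10.2%. After washout voom called 2 of the 19 higher than with IAA and 3 lower, against 11.6% and 13.6%. Of 13 tested APC/C subunits and regulators 0 passed with IAA by limma and CDC23 alone was lower after washout than with IAA. Of 13 tested inhibitory kinases and CDK regulators 0 passed with IAA, and CKS2, a small CDK1-binding protein, was lower after washout than with IAA, with 9.62 and 10.1 FPKM after washout, 11.7 and 12.3 with IAA and 9.81 and 10.4 in control. Here 2 APC/C genes and 5 CDK regulators had an unadjusted limma p under 0.05 with IAA, against 31.6% of all tested genes. In either direction voom called 1 of 17 and 4 of 15, against 24.1% of all genes. In the condensin and cohesin list the condensin subunit NCAPD2 was higher with IAA (1 of 13), and NCAPD2 and SGOL1, which protects cohesion at centromeres, were lower after washout than with IAA. NCAPD2 had 4.85 and 4.71 FPKM after washout, 5.62 and 5.50 with IAA and 4.67 and 4.57 in control, with both IAA libraries above the other 4. In this list voom called 4 of 15 higher with IAA and 1 lower, SMC3, against 13.9% and 10.2% of all genes.

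Other kinetochore and checkpoint genes had 3 of 21 tested higher with IAA, against 6.64% of all tested genes, and 0 lower, with a median log2 change of 0.10, against 0.014. HJURP, the chaperone that loads CENPA, had 6.10 and 6.09 FPKM after washout, 8.22 and 7.50 with IAA and 6.27 and 6.48 in control (limma log2 change 0.26, SE 0.0511, adjusted p = 0.0387 for IAA over control). The IAA libraries of HJURP were highest, and MIS12 and SKA1, which link kinetochores to microtubules, were the others called. On recovered reads voom called 6 of 31 kinetochore and checkpoint genes higher with IAA and 0 lower, against 13.9% and 10.2% of all genes. Among other kinesins and spindle or midbody genes 2 of 20 tested were higher by limma (STIL, which starts centrioles, and KIF3A, a motor of cilia) and 1 lower (ARHGAP11A). Of these, voom called 6 of 26 higher and 1 lower, again ARHGAP11A. STIL had 1.32 and 1.40 FPKM after washout, 1.72 and 1.75 with IAA and 1.37 and 1.30 in control, highest with IAA, and ARHGAP11A had 8.22 and 8.33 FPKM after washout, 7.20 and 7.35 with IAA and 8.61 and 8.46 in control, lowest with IAA.

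S phase genes, the earlier wave of the cycle, were set beside the members. With IAA 1 of 33 tested was higher (GINS4, of the replicative helicase) and 1 lower (UHRF1, a maintainer of DNA methylation), with a median log2 change of 0.0016, against 6.64% higher, 6.49% lower and a median of 0.014 over all tested genes. After washout 6 of 33 were higher than with IAA and 0 lower, against 7.73% and 6.65% of all tested genes, with a median of 0.094. On recovered reads voom called 4 of 41 higher with IAA and 2 lower, against 13.9% and 10.2% of all genes. After washout voom called 16 of 41 higher than with IAA and 1 lower, against 11.6% and 13.6%. Both washout libraries lay above both control libraries in 35 of 41 S phase genes (85.4%, against 23.7% of all genes) and below both in 0 (against 17.2%). The members had 4 of 45 above. By limma 0 of 33 S phase genes passed in washout against control, with 15 at an unadjusted p under 0.05, against 9.02% of all tested genes, and by voom 1 of 41, against 0.644%. UHRF1 had 2.53 and 2.60 FPKM after washout, 1.79 and 1.83 with IAA and 2.24 and 2.41 in control, and MCM5, of the replicative helicase, had 7.45 and 6.93 FPKM after washout, 5.78 and 5.87 with IAA and 5.97 and 6.27 in control. Both were highest after washout. The difference between the S phase genes and the members was not tested.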

How the data were processed

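Per the submitters' processing notes, reads were processed with HISAT, Bowtie2, HTSeq and edgeR on hg19. No source used here gives versions, roles, annotation release or strand. The deposited values are FPKM, made by the authors. Low values matched whole reads over the GENCODE 29 gene span in 88.3% of 6800 genes and over the exon length in 38.1%. Whole reads (tolerance 0.02 reads) were recovered for 99.77% of 21707 genes above 0, and for 12 members they were set to the nearest whole solution. Recovered reads summed to 104.63% to 105.01% of the library totals.

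The test, on log2(FPKM + 1) for genes averaging 1 FPKM or more, was limma (version 3.58.1, R 4.3.3), with a mean per group, an intensity trend and 3 residual degrees of freedom. Tests were two-sided, with Benjamini-Hochberg adjustment over all genes tested. Fold changes are ratios of mean FPKM, whereas log2 changes carry the added 1 and so understate changes of low genes. Limma voom was run on recovered reads (14763 genes with a mean of at least 10 reads), as an alternative and as the test of the 7 members below the filter. Alternatives changed the pseudocount, filter, scaling, replicate block, libraries and promoter window. The members, lists and tests were chosen with earlier results of these data known. Named genes were members called in any comparison, the largest change and most reads per function group, 8 core genes, members below the filter called by voom, and up to 3 called genes per list. Other genes named to account for the set or as exceptions were chosen after their values were seen.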

Additional observations from a re-analysis of the deposited data

How the results depend on the processing

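Counts of genes called in IAA against control, washout against IAA and washout against control (1092, 1196 and 0) became 3555, 3721 and 95 by voom, and 486, 532 and 0 with the replicate number as a block. Without a filter, washout against control gave 48 calls, and 27 with a filter of 0.1 and a pseudocount of 0.1. Without single libraries these counts were 50 to 534, 46 to 421 and 0 to 0. The 7 members higher with IAA became 1 without a filter, 4 with TPM, 0 under the block and 19 by voom, and 0 to 1 without single libraries. The 0 members lower became 2 by voom. The 4 members lower after washout than with IAA became 7 with a pseudocount of 5, 2 without a filter, 2 with TPM, 0 under the block and 21 by voom, and 0 to 0 without single libraries. The 0 members higher became 2 by voom. The 4 members below the filter called by voom were 3 to 5 without single libraries, 1 by limma with the filter at 0.1 and 0 without a filter. The cause of these differences was not tested. The labels do not say what the replicate numbers stand for. Deviations of same-numbered libraries from their group means correlated at 0.043 (control and IAA), -0.027 (control and washout) and 0.0060 (IAA and washout). Whether same-numbered libraries belong together was not tested. Where a lone library stands for a group, it is assumed to vary like the others.

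Among values of single genes, 536 kept direction and side of the threshold under alternatives with all libraries, 39 lost and 17 gained a call, and 8 changed sign, all near 0 and none of them called. These were, in IAA against control, KIF23 (-0.00662) and FOXM1 (-0.00363) with TPM. In washout against IAA it was FOXM1 (0.0260) with TPM. In washout against control they were CDK1 (-0.0107), CDC25B (-0.00481), ANLN (-0.00758) and TOP2A (-0.000982) with median ratio scaling and MKI67 (0.00427) with TPM. Without single libraries, log2 changes that changed sign ran in IAA against control over PLK1 -0.0432 to 0.0111, KIF23 -0.00910 to 0.0570, UBE2C -0.0694 to 0.0293; in washout against IAA over TPX2 -0.00776 to 0.0269, UBE2C -0.00871 to 0.0900, FOXM1 -0.0253 to 0.000181; and in washout against control over CDK1 -0.00221 to 0.0108, CDC25B -0.0216 to 0.0406, KIF20A -0.10 to 0.0125, HMMR -0.0245 to 0.0646, TPX2 -0.0331 to 0.00155, ANLN -0.0125 to 0.0239, ECT2 -0.0310 to 0.0126, TOP2A -0.0373 to 0.0651, MKI67 -0.0401 to 0.0350, UBE2C -0.0253 to 0.0664, FOXM1 -0.00155 to 0.0292, KIF18A -0.0682 to 0.0733, CDC25C -0.0332 to 0.34.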
